A study of Mus musculus with 9 samples.

Results

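Cadherins and protocadherins were followed through the differentiation of neural stem and progenitor cells (NSCs/NPCs) cultured from the dentate gyrus of adult C57BL6 mice. The set was defined by gene name and holds every gene whose listed symbol begins with Cdh and a digit, or with Pcdh. This gave 88 genes, represented by 146 of the 45281 probes of the Illumina MouseWG-6 v2.0 array, out of 19057 genes with a probe of their own. Total RNA was hybridized to 9 arrays, 3 for each of 3 stages. The proliferation samples were neurospheres, floating balls of dividing cells grown with growth factors. For differentiation, dissociated neurosphere cells were seeded on coated dishes, held for 2 days in proliferation medium and then moved to differentiation medium for 2 days (early differentiation) or 7 days (late differentiation). Floating neurospheres were thus compared with attached cells, and the change of culture format and the stage of differentiation cannot be told apart. A slide effect and the early stage cannot be told apart either, because the labels place all early samples on 1 of the 2 BeadChips and the proliferation and late samples on the other. The labels call the 3 samples of a stage biological replicates without saying whether they came from separate mice or cultures, so the p-values measure the spread between these samples, which may be technical.

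Cadherins are calcium-dependent adhesion proteins of the cell surface. The classical cadherins (types I and II) bind the same or a related cadherin on the neighbouring cell and, through catenins, the actin cytoskeleton inside, and in the neural stem cell niche they hold stem cells to each other and to their neighbours. The non-clustered delta protocadherins bind more weakly and signal to actin regulators and phosphatases. The clustered protocadherins are encoded side by side in the alpha, beta and gamma gene clusters, and each neuron uses a few of them as a surface label by which it tells its own branches from those of other cells.

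Between 18310 and 19919 probes were detected per array (detection p-value under 0.05). Mean intensity, in scanner units before normalization, was 218 to 228 on the proliferation arrays, 157 to 171 on the early arrays and 173 to 180 on the late arrays. All levels below are background-corrected, quantile-normalized log2 intensities, in which 1 unit is a doubling, and the level of one probe cannot be set against that of another. In these units both cycling markers that were tested, Top2a and Cdk1, fell, their mean level running from 8.67 to 9.11 on the proliferation arrays and from 4.37 to 4.78 on the late arrays. The mean level of the 7 astrocyte markers ran from 7.35 to 7.58 and from 8.81 to 9.08 on the same arrays, that of the 4 ependymal markers from 4.79 to 4.89 and from 7.33 to 7.75, and that of the 5 tested neuron markers from 5.97 to 5.98 and from 6.0 to 6.14. In late differentiation 4 astrocyte markers rose, most of all Gfap (4.38 ± 0.36) and Aqp4 (3.55 ± 0.36). The other 3 were not called, with Aldh1l1 at -0.32 ± 0.21. No neuron marker was called in late differentiation, and Rbfox3 rose in early differentiation (at least 2.12-fold, adjusted p = 0.00258). Of 7 tested stem and progenitor markers 4 rose (Sox2, Sox9, Vim and Prom1) and 1 fell (Fabp7) in late differentiation. Of 5 tested markers of the oligodendrocyte lineage Olig1 (-1.85 ± 0.18) and Olig2 (at least 2.07-fold, adjusted p = 1.24e-05) fell and Pdgfra rose (0.73 ± 0.20), the last not without late replicate 1. The single tested marker of mural cells and fibroblasts, Acta2, rose by 2.21 ± 0.36, and that of epithelium and choroid plexus, Folr1, at least 3.13-fold (adjusted p = 1.13e-04), while the 6 and 4 other markers of those lists did not reach the filter. In bulk RNA, fewer cells of a type and less RNA per cell cannot be told apart, and the part of this change of cell types in the results on cadherins was not tested.

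Of the 88 genes, 43 had a probe detected on at least 3 arrays and were tested, and 26 of these were detected on all 9 arrays. The tested genes were 11 of 23 cadherins, 8 of 11 non-clustered protocadherins and 24 of 54 clustered protocadherins (2 of 12 alpha, 14 of 22 beta and 8 of 20 gamma). The other 45 genes were represented by 70 probes, of which 55 were detected on no array, 11 on 1 and 4 on 2. Among them were Cdh5 (VE-cadherin of endothelial cells), Cdh3 (P-cadherin), Cdh15 (M-cadherin of muscle), the type II cadherins Cdh7, Cdh8, Cdh9, Cdh12 and Cdh18, and Cdh16, Cdh17, Cdh23 and Cdh26. The delta protocadherins Pcdh8 and Pcdh18 and the endothelial Pcdh12 were not tested either. The untested alpha genes were Pcdha1, Pcdha2, Pcdha3, Pcdha5, Pcdha9, Pcdha10, Pcdha11, Pcdha12, Pcdhac1 and Pcdhac2, the untested beta genes Pcdhb1, Pcdhb2, Pcdhb4, Pcdhb5, Pcdhb9, Pcdhb11, Pcdhb13 and Pcdhb15, and the untested gamma genes Pcdhga1, Pcdhga3, Pcdhga5, Pcdhga6, Pcdhga9, Pcdhga10, Pcdhga12, Pcdhgb2, Pcdhgb5, Pcdhgb6, Pcdhgb7 and Pcdhgb8. These genes were at or near the detection limit of the array, and no statement about their absence is made.

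In late differentiation as compared to proliferation, 4 of the 43 tested genes rose and 11 fell, where a call required an adjusted p-value under 0.05 (Benjamini-Hochberg over all 11009 genes tested, limma) and a change of at least 1.5-fold. Over all genes tested, 17.6% rose and 16.2% fell. The shares of the cadherins and protocadherins were 9.30% and 25.6%. Their median log2 fold change was 0.04, that of all genes 0.01. In early differentiation as compared to proliferation 3 genes rose and 7 fell, or 6.98% and 16.3% of those tested, against 16.8% and 15.2% of all genes, and the median was 0.10 against 0.00. The balance of these counts depended on the scaling. In early differentiation 1 rose and 9 fell with no normalization between arrays, 6 rose and 8 fell after background subtraction and scaling to the 75th percentile, and 1 rose and 6 fell in the deposited value table. In late differentiation the 75th percentile scaling gave 6 and 10. These 2 comparisons share the proliferation arrays, so their calls are not independent of each other. Between late and early differentiation none rose and 2 fell in limma, against 1.57% and 2.35% of all genes. At an unadjusted p-value under 0.05 with no fold minimum, 7 were higher (Cdh19, Pcdhga4 and 5 beta genes) and 6 lower. In the 3 comparisons together 15 genes were called. Of these, 14 were detected on all 9 arrays and Pcdhb3 on 8. The filter on dim probes still bore on calls near the threshold. Without it the late call of Pcdh19 (adjusted p = 0.0708) and the calls of Cdh13 (0.0503) and Pcdh19 (0.101) between late and early differentiation were lost at the same size.

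By kind of gene, of the 19 tested non-clustered genes 11 fell (57.9%) and 1 rose (5.26%) in late differentiation, against 16.2% and 17.6% of all genes. Their median log2 fold change was -0.61, that of all genes 0.01. Of the 24 tested clustered protocadherins none fell and 3 rose (12.5%), all of the beta cluster, with a median of 0.19. In early differentiation the non-clustered genes counted 7 lower (36.8%) and 1 higher (5.26%), with a median of -0.30. The clustered genes counted 2 higher (8.33%) and none lower, with a median of 0.19. Over all genes 15.2% were lower and 16.8% higher there, with a median of 0.00. In both comparisons the share of clustered genes that rose was below that of all genes. At an unadjusted p-value under 0.05 a single clustered gene was lower in each comparison, Pcdhgc3 in late and Pcdhga4 in early differentiation. The difference between the 2 kinds was not tested. Of the clustered genes 12 of 24 were detected on all 9 arrays, against 14 of the 19 non-clustered genes. Several clustered genes started near the detection limit in proliferation, such as Pcdhga8 (mean 4.19), Pcdhb18 (4.39) and Pcdhga7 (4.40). From there a decrease of 1.5-fold could hardly be measured, so the absence of a call for a decrease says little about those genes.

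**Figure D1:**
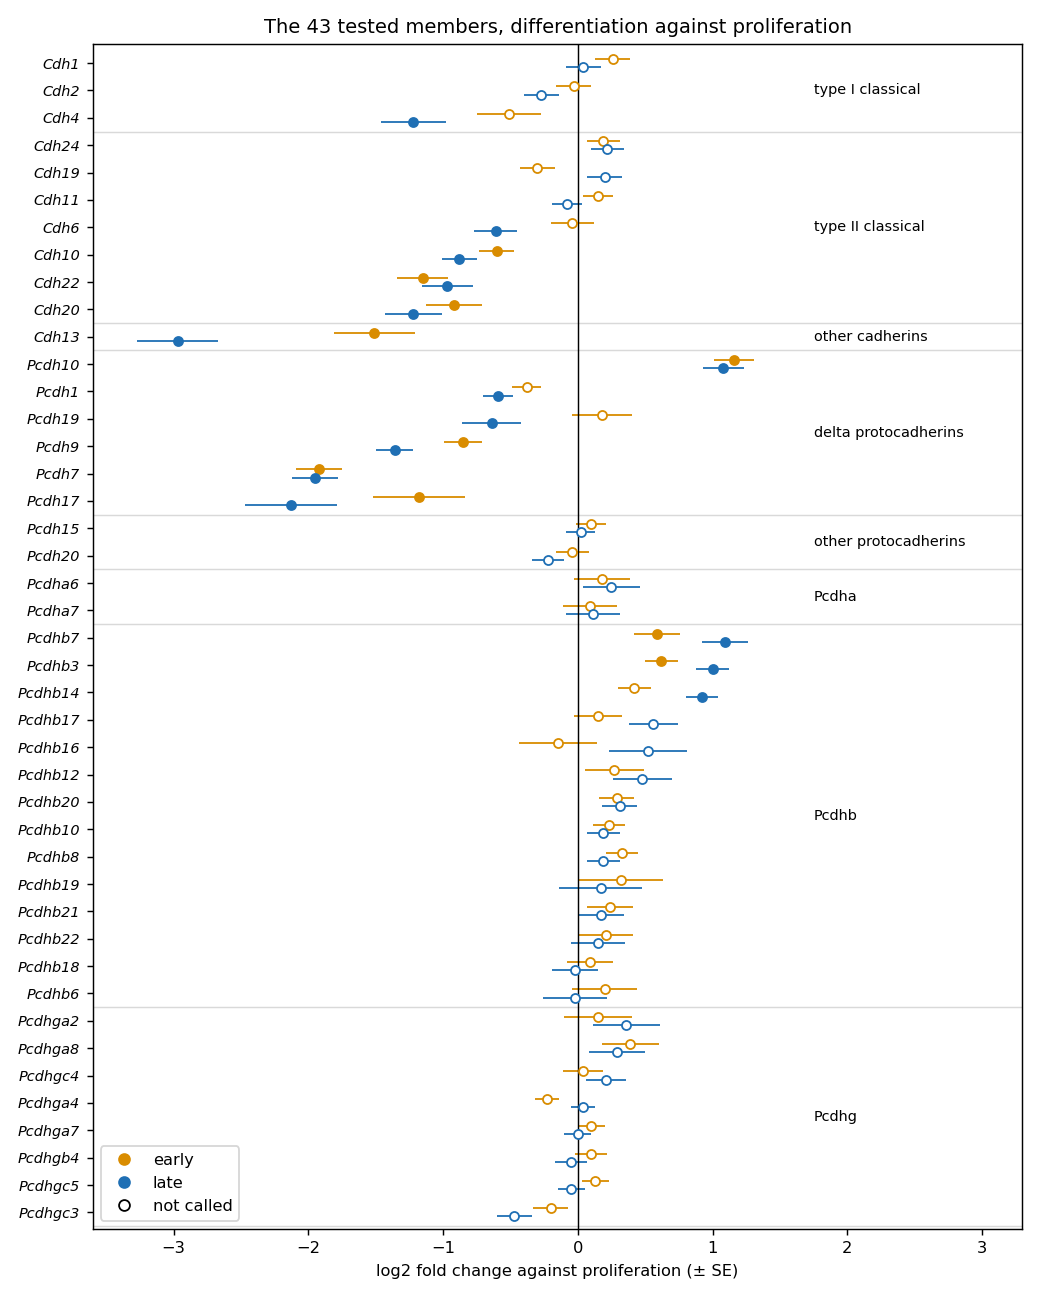
Log2 fold change (x axis, ± SE from the fit to 9 arrays) of the 43 tested cadherin and protocadherin genes in early (orange) and late (blue) differentiation as compared to proliferation, grouped by class. Filled points were called, and the called points of the upper classes lie on the left apart from Pcdh10, while those of the beta cluster lie on the right.

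Of the type I classical cadherins, Cdh4 fell and the 2 others tested were not called. Cdh4 encodes R-cadherin, which is expressed in the developing retina and brain. Its level was 9.92, 9.96 and 9.59 in proliferation, 9.12, 9.22 and 9.60 in early differentiation and 8.13, 9.22 and 8.45 in late differentiation. The late samples all lay below the proliferation samples, late replicate 2 standing closest to them. The log2 fold change was -1.22 ± 0.24 (SE, adjusted p = 0.00156, 2.33-fold lower) in late differentiation and -0.51 ± 0.24 (adjusted p = 0.105) in early differentiation. A second Cdh4 probe gave -1.33 ± 0.19 and -0.61 ± 0.19, and on that probe the early decrease passed the threshold (adjusted p = 0.0198 over all kept probes).

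Cdh2 encodes N-cadherin, the main classical cadherin of neural stem cells. Its level was 5.32, 5.41 and 5.35 in proliferation, 5.31, 5.38 and 5.30 in early differentiation and 4.98, 4.90 and 5.39 in late differentiation. The 6 samples of the first 2 stages lay between 5.30 and 5.41, and late replicates 1 and 2 were lower while replicate 3 was not. The change in late differentiation was -0.27 ± 0.13 (adjusted p = 0.0945) and was not called. A second, dimmer Cdh2 probe, detected on 8 arrays, gave -0.04 ± 0.13 there. Cdh1 (E-cadherin, the classical cadherin of epithelia) was detected on 5 arrays. Its levels of 4.44, 4.57 and 4.36 in proliferation, 4.85, 4.86 and 4.45 in early differentiation and 4.38, 4.49 and 4.63 in late differentiation overlapped between all stages, and it was not called (late 0.04 ± 0.13, early 0.26 ± 0.13). Both Cdh5 probes were detected on no array. The brighter ran from 4.20 to 4.43 over the 9 arrays, and of the 6 endothelial markers Pecam1, Cldn5, Tek and Esam did not reach the filter for testing either. The other 2 did. Emcn was detected on the 3 proliferation arrays alone (4.61, 4.79 and 4.58) and was not called in late differentiation (-0.46 ± 0.10, adjusted p = 0.00214, under 1.5-fold), although it was called lower with background subtraction and scaling to the 75th percentile. Kdr was detected on 4 arrays and its stages overlapped (late 0.09 ± 0.11).

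Of the type II classical cadherins 4 of 7 tested genes (57.1%) fell in late differentiation, Cdh20, Cdh22, Cdh10 and Cdh6, against 16.2% of all genes. Type II cadherins are expressed in differing combinations by neuron groups and sort them from each other. Cdh20 stood at 6.43, 6.27 and 5.76 in proliferation, at 5.65, 5.04 and 5.01 in early differentiation and at 4.81, 5.18 and 4.81 in late differentiation. It fell by day 2 (-0.92 ± 0.21, adjusted p = 0.00385) and was 2.33-fold lower by day 7 (-1.22 ± 0.21, adjusted p = 5.93e-04). The stages did not overlap between proliferation and either differentiation stage.

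Cdh22, a cadherin of brain and pituitary, stood at 6.47, 6.22 and 6.28 in proliferation, at 5.38, 5.12 and 5.01 in early differentiation and at 5.46, 5.71 and 4.87 in late differentiation. It fell by day 2 and the late level did not differ detectably from the early one, with -1.15 ± 0.19 (adjusted p = 5.10e-04) at day 2, -0.97 ± 0.19 (adjusted p = 0.00145) at day 7 and 0.18 ± 0.19 between them (adjusted p = 0.633). Cdh10 stood at 5.61, 5.92 and 5.56, then at 5.10, 5.25 and 4.93, then at 4.74, 4.94 and 4.76. It fell in both comparisons, by -0.60 ± 0.13 (adjusted p = 0.00237) and -0.88 ± 0.13 (adjusted p = 1.73e-04). The early call rests on the fold minimum, since without proliferation replicate 2 or early replicate 3 the change was -0.48 or -0.53, under 1.5-fold.

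Cdh6, known from kidney and from boundaries in the embryonic forebrain, stood at 5.55, 5.69 and 5.70 in proliferation, at 5.39, 5.80 and 5.63 in early differentiation and at 4.73, 5.36 and 5.03 in late differentiation. It was not called at day 2 (-0.04 ± 0.16, adjusted p = 0.847) and lower at day 7 (-0.61 ± 0.16, adjusted p = 0.00779). The late change lay near 1.5-fold and was not called without proliferation replicate 2 (-0.58), proliferation replicate 3 (-0.57) or late replicate 1 (-0.46). Cdh19, a cadherin of the peripheral glial lineage, went the other way between days 2 and 7. Its level was 5.31, 5.17 and 5.10 in proliferation, 5.06, 4.87 and 4.74 in early differentiation and 5.49, 5.52 and 5.16 in late differentiation. All late samples lay above all early samples, with a difference of 0.50 ± 0.13 (adjusted p = 0.0446) that was under 1.5-fold and so not called, although it was 0.61 and called without late replicate 3. Cdh11 and Cdh24, detected on 4 and 3 arrays, changed by 0.22 or less in size in every comparison and were not called. With background subtraction and scaling to the 75th percentile, Cdh24 was called higher in early (2.18, adjusted p = 0.0189) and late differentiation (2.21, adjusted p = 0.0171). It was detected on no proliferation array, so the size of these changes is not measured.

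Cdh13 had the largest change of all 43 genes in late differentiation. It encodes T-cadherin, which is held in the membrane by a lipid anchor, has no cytoplasmic tail to bind catenins, and is a receptor for adiponectin. Its level was 8.90, 8.65 and 9.37 in proliferation, 6.99, 7.38 and 8.01 in early differentiation and 5.88, 5.60 and 6.54 in late differentiation. No sample of one stage reached the range of another, and replicate 3 was the highest of its stage each time. The log2 fold change was -1.51 ± 0.30 at day 2 (adjusted p = 0.00143) and -2.97 ± 0.30 at day 7 (adjusted p = 1.24e-05), a decrease of 7.81-fold. It also fell from day 2 to day 7, by -1.45 ± 0.30 (adjusted p = 0.0173). That last call was lost without early replicate 2 (adjusted p = 0.0586), late replicate 1 (0.0583) or late replicate 2 (0.0540), though the estimate stayed between -1.25 and -1.50 there. The 2 dimmer Cdh13 probes fell as well, by -1.98 ± 0.28 and -1.81 ± 0.18 in late differentiation.

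**Figure D2:**
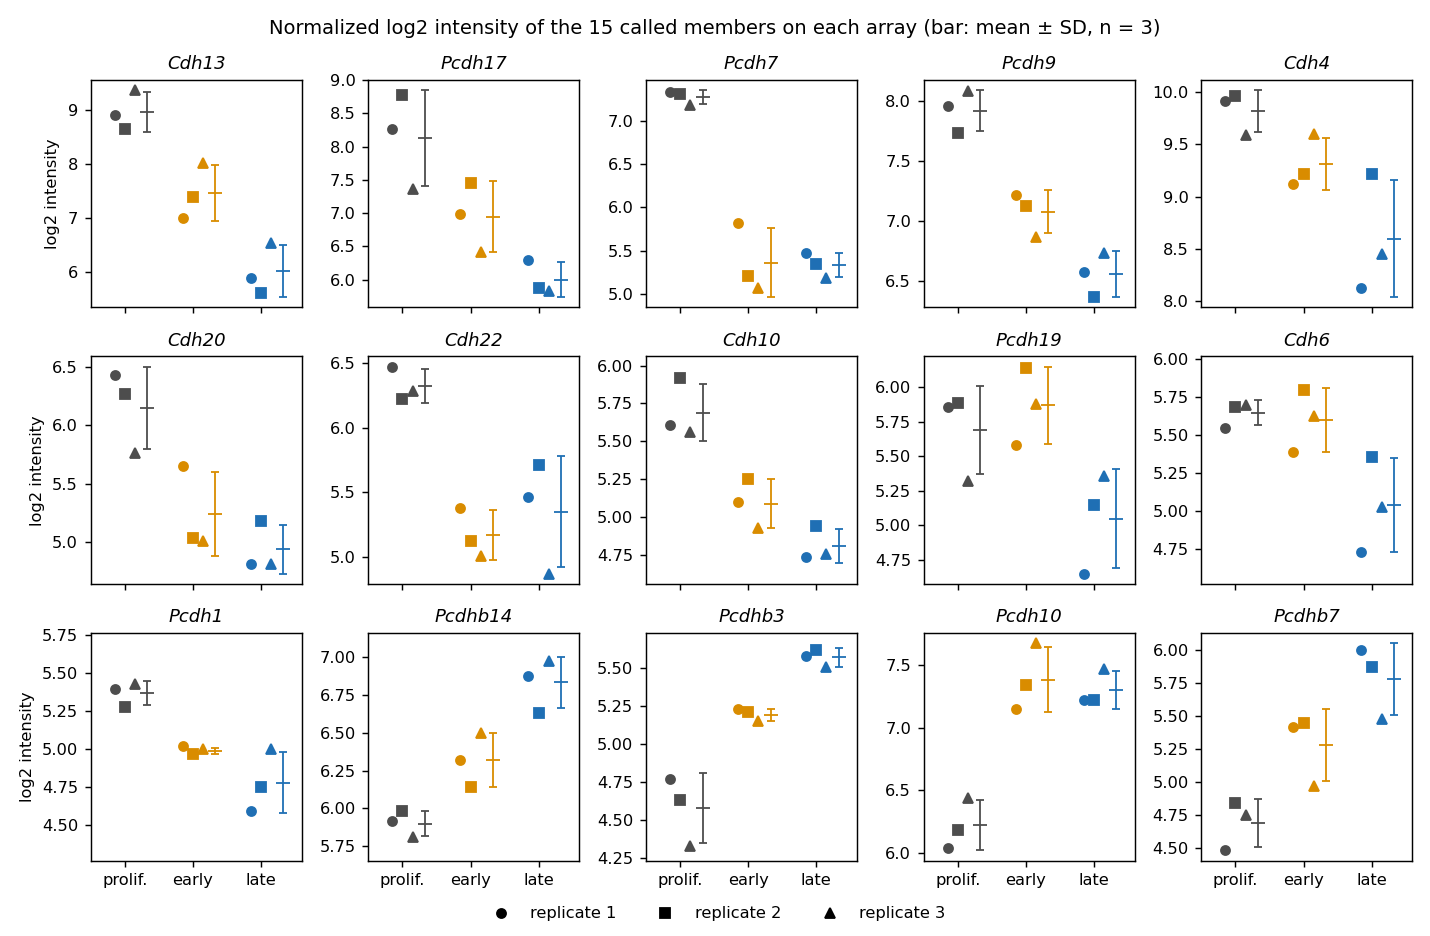
Normalized log2 intensity (y axis, a scale of its own in each panel) of the 15 called genes on each of the 9 arrays, by stage (x axis) and replicate (symbol), with mean ± SD (n = 3) beside the points. Cdh13, Pcdh17 and Pcdh9 step down from stage to stage, Pcdh7 and Cdh22 reach their late level by day 2, and Pcdh10 and the 3 beta protocadherins rise.

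All 6 tested delta protocadherins were called in late differentiation, 5 lower (83.3%) and 1 higher (16.7%), against 16.2% and 17.6% of all genes. The proteins of Pcdh1, Pcdh7 and Pcdh9 form the delta-1 group, whose cytoplasmic tails can bind protein phosphatase 1, and those of Pcdh10, Pcdh17 and Pcdh19 belong to the delta-2 group, which recruits the actin-regulating WAVE complex.

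Pcdh7 stood at 7.34, 7.31 and 7.19 in proliferation, at 5.82, 5.20 and 5.07 in early differentiation and at 5.47, 5.34 and 5.18 in late differentiation. The early and late samples overlapped each other and lay far below proliferation. A decrease was present at day 2 (-1.92 ± 0.17, adjusted p = 7.15e-06) and held at day 7 (-1.95 ± 0.17, adjusted p = 5.48e-06, 3.87-fold), with -0.04 ± 0.17 between the 2 stages. Pcdh9 fell in steps, from 7.96, 7.73 and 8.08 to 7.22, 7.13 and 6.87 and then to 6.58, 6.37 and 6.74. Its changes against proliferation were -0.85 ± 0.14 (adjusted p = 4.33e-04) and -1.36 ± 0.14 (adjusted p = 1.39e-05). The step from day 2 to day 7 separated every late from every early sample but missed the threshold (-0.51 ± 0.14, adjusted p = 0.0510), and it was called without early replicate 3 (-0.62) or late replicate 3 (-0.60). Pcdh1 stood at 5.40, 5.28 and 5.43, then at 5.02, 4.97 and 5.0, then at 4.59, 4.75 and 5.0. It fell by -0.59 ± 0.11 in late differentiation (adjusted p = 0.00115, 1.51-fold), which was under 1.5-fold without proliferation replicate 1 (-0.57), proliferation replicate 3 (-0.55) or late replicate 1 (-0.50).

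Among the delta-2 genes, Pcdh17 varied most between replicates. Its level was 8.26, 8.78 and 7.36 in proliferation, 6.99, 7.46 and 6.41 in early differentiation and 6.29, 5.87 and 5.83 in late differentiation, with replicate 3 the lowest of each stage. The decrease was -1.18 ± 0.34 at day 2 (adjusted p = 0.0137), where early replicate 2 lay above proliferation replicate 3, and -2.13 ± 0.34 at day 7 (adjusted p = 3.47e-04, 4.39-fold), where the stages did not overlap. The early call was lost without proliferation replicate 2 (adjusted p = 0.0559) or early replicate 3 (0.0578). From day 2 to day 7 the change was -0.96 ± 0.34 (adjusted p = 0.118). The labels do not state a pairing, but the replicate numbers were taken to pair the early and late samples from correlations between them. With the replicate block this step was called at the same size (-0.96 ± 0.22, adjusted p = 0.0229). In that fit the step of Cdh13 from day 2 to day 7 was -1.45 ± 0.14 (adjusted p = 5.71e-04).

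Pcdh19, whose human counterpart on the X chromosome is mutated in a form of epilepsy, stood at 5.86, 5.89 and 5.32 in proliferation, at 5.58, 6.14 and 5.88 in early differentiation and at 4.65, 5.15 and 5.36 in late differentiation. It was not lower at day 2 (0.18 ± 0.22, adjusted p = 0.521) and fell between day 2 and day 7 (-0.81 ± 0.22, adjusted p = 0.0482). Against proliferation its late level was -0.64 ± 0.22 (adjusted p = 0.0277), with late replicate 3 above proliferation replicate 3. Both calls lay close to the threshold. The call between day 2 and day 7 held in 6 of 20 alternative settings and was lost when any 1 of 7 arrays was left out, all but proliferation replicate 3 and late replicate 3. The late call against proliferation held in 13 of 20 and was lost without proliferation replicate 1 (-0.54), proliferation replicate 2 (-0.53) or late replicate 1 (-0.44).

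With the processing reported here, Pcdh10 was the only non-clustered gene of those tested that rose. It encodes OL-protocadherin, which guides growing axons in the mouse forebrain. Its level was 6.04, 6.18 and 6.44 in proliferation, 7.15, 7.34 and 7.67 in early differentiation and 7.22, 7.22 and 7.47 in late differentiation. All differentiating samples lay above all proliferating ones, and the early and late samples overlapped. The change was 1.16 ± 0.15 at day 2 (adjusted p = 9.93e-05) and 1.08 ± 0.15 at day 7 (adjusted p = 1.47e-04, 2.12-fold). Its 2 other probes rose in late differentiation as well, by 1.40 ± 0.14 and 0.71 ± 0.11. The remaining non-clustered protocadherins tested, Pcdh15 of the inner-ear tip link and Pcdh20, were each detected on 3 arrays, and neither was called (late 0.02 ± 0.11 and -0.22 ± 0.12).

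Sequence upstream of a listed start of 9 of the 15 called genes was at hand in RefSeq (mouse assembly GRCm38.p6), which held such a sequence for 22 of the 88 genes. The start is the first listed for a gene. For Pcdh10 and Pcdh17 it was the outer end of the gene. For the other called genes it lay inside the gene, as in Pcdh7, whose gene begins at 57716145, and Cdh22, whose gene ends at 165234924. The 100 bases before the start are shown for the 2 delta protocadherins that fell most, for the type II cadherin with the densest CG content and for the one that rose, with each CG dinucleotide, the site of DNA methylation in mammals, in capitals.
Pcdh7 (chr5:57717981-57718080, plus strand): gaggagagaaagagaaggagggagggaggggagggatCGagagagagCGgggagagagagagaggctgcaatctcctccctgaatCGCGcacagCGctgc
Pcdh17 (chr14:84443463-84443562, plus strand): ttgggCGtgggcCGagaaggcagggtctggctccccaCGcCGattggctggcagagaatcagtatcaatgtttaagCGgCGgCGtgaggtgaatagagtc
Cdh22 (chr2:165234738-165234837, minus strand): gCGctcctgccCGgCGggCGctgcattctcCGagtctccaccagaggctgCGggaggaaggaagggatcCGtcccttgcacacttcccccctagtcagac
Pcdh10 (chr3:45378298-45378397, plus strand): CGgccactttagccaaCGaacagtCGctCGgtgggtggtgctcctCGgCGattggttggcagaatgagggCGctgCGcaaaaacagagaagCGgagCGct
Over 300 bases around the start (250 before it and 50 after), Pcdh7 held 11 CG dinucleotides, Pcdh17 26, Cdh22 38 and Pcdh10 24, where the median over 32851 promoters of the table was 7. The other called genes with a sequence held 18 each (Cdh20, Pcdh9 and Pcdh19), 8 (Cdh6) and 2 (Cdh10). Genes that fell thus ranged from 2 to 38, and Pcdh10, which rose, lay between them. The motif CAGGTG, an E-box read by the Zeb and Snail repressors of Cdh1, was searched on both strands. It was present in 20.2% of all promoters and, among the 9 called genes, in Pcdh7 alone, which describes these letters and not a binding site.

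Several probes were kept for 13 genes. In every called gene among them the change of the dimmer probes in late differentiation had the sign of the brightest one, and most were smaller. The Pcdh7 probe in use changed by -1.95 and its 2 dimmer probes by -0.43 ± 0.10 and -0.53 ± 0.11, which were detected on 4 and 3 arrays. Pcdh17 gave -2.13 and -0.63 ± 0.14, Cdh20 -1.22 and -0.62 ± 0.10, Cdh10 -0.88 and -0.37 ± 0.11, and Pcdh1 -0.59 and -0.19 ± 0.10. The 4 Pcdh9 probes ranged from -1.36 to -0.55. For Pcdh1 and Cdh10 the call depended on the probe: with the mean of all kept probes Pcdh1 changed by -0.39 in late differentiation and Cdh10 by -0.43 in early differentiation, both under 1.5-fold. The background offset compresses changes of dim probes, and where each probe lies in its transcript was not examined.

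**Figure D3:**
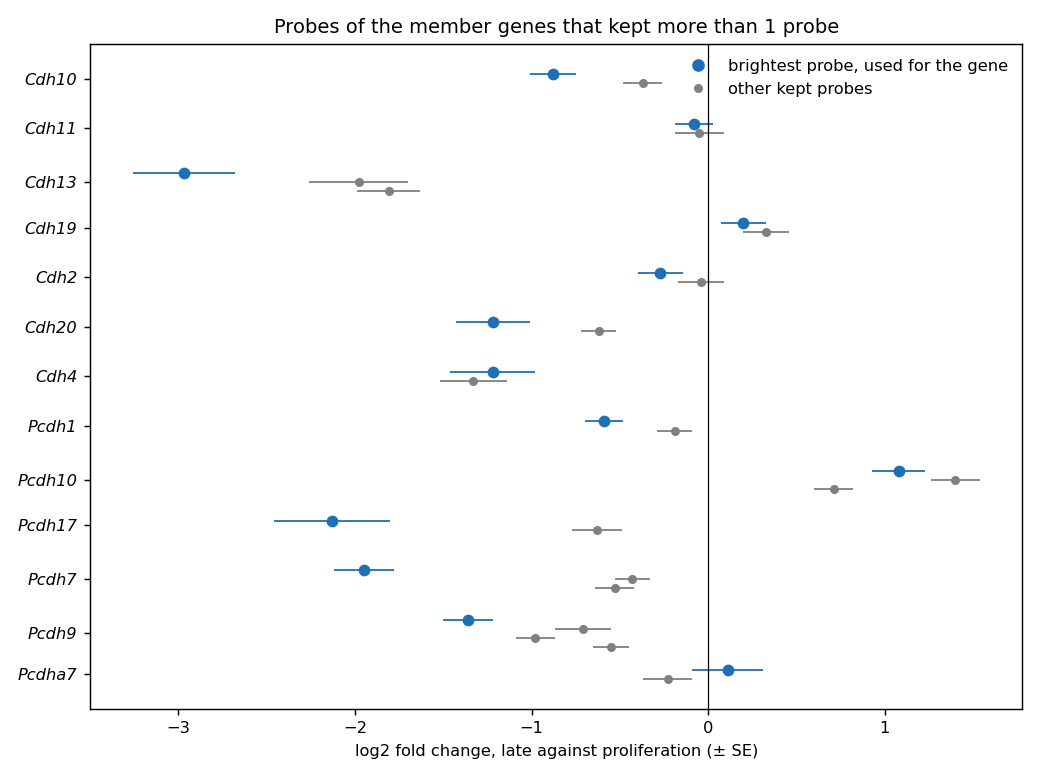
Log2 fold change in late differentiation as compared to proliferation (x axis, ± SE) for each kept probe of the 13 genes with more than 1. The brightest probe (blue) stands for the gene, and in the called genes every other probe (grey) lies on the same side of 0.

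Of the clustered protocadherins only beta genes were called. Probes for members of one cluster can share sequence, since alpha and gamma transcripts end in common exons and beta genes are close copies of each other, so the identity of a single clustered gene is less certain than that of the genes above. The beta proteins, each encoded by a single exon, combine with alpha and gamma proteins at the cell surface. Pcdhb7 stood at 4.48, 4.84 and 4.75 in proliferation, at 5.42, 5.45 and 4.97 in early differentiation and at 6.0, 5.87 and 5.48 in late differentiation. No early or late sample reached down to proliferation. The change was 0.59 ± 0.17 (adjusted p = 0.0140) and then 1.09 ± 0.17 (adjusted p = 3.06e-04). Pcdhb3 stood at 4.77, 4.63 and 4.33, then at 5.23, 5.21 and 5.15, then at 5.58, 5.62 and 5.51, and its 3 stages were wholly apart. Its change was 0.62 ± 0.12 (adjusted p = 0.00124) and then 1.0 ± 0.12 (adjusted p = 4.15e-05).

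Pcdhb14 stood at 5.92, 5.98 and 5.81 in proliferation, at 6.32, 6.14 and 6.50 in early differentiation and at 6.87, 6.63 and 6.97 in late differentiation, again with no overlap between any 2 stages. It was called in late differentiation (0.92 ± 0.12, adjusted p = 1.07e-04). Its steps to day 2 (0.42 ± 0.12, adjusted p = 0.0160) and from day 2 to day 7 (0.51 ± 0.12, adjusted p = 0.0367) each passed the p-value threshold but not 1.5-fold. The early calls of the other 2 genes were near the limits. That of Pcdhb3 fell under 1.5-fold without proliferation replicate 3 (0.48), and that of Pcdhb7 was lost without proliferation replicate 1 (adjusted p = 0.0610), early replicate 1 (0.0530) or early replicate 2 (0.0560).

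For 3 further clustered genes late replicate 2 was the lowest late sample, far from the others in Pcdhb16 and Pcdhb19. Pcdhb16 was at 6.07, 4.70 and 5.84 in late differentiation, against 5.18, 5.04 and 4.83 in proliferation and 5.08, 4.78 and 4.73 in early differentiation. Pcdhb19 was at 5.86, 4.41 and 5.75 in late differentiation and between 5.09 and 5.68 on the other 6 arrays. Pcdhga2 was at 5.65, 4.54 and 5.0 in late differentiation, against 4.70, 4.55 and 4.86 in proliferation and 4.97, 4.46 and 5.12 in early differentiation, its late samples being spread out with replicate 1 the highest. In Pcdhb19 and Pcdhga2 replicate 2 was the lowest in all 3 stages. None of the 3 was called over all arrays (0.52 ± 0.29, 0.17 ± 0.31 and 0.36 ± 0.25). Without late replicate 2 all 3 were called higher in late differentiation, and the count of genes that rose went from 4 to 7. On that array Pcdha6 and Pcdha7 were at their highest, 6.04 and 7.07, so it was not low for every clustered gene. Late replicate 2 had the fewest detected probes of the 9 arrays (18310). It was also far below the other late arrays in some genes outside the set, such as Wapl (5.99 against 7.87 and 7.64) and Zeb2 (7.22 against 8.77 and 9.19).

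None of the other clustered genes detected on all 9 arrays was called. Pcdhgb4 was at 8.11, 8.07 and 8.08 in proliferation, at 8.19, 8.21 and 8.15 in early differentiation and at 8.12, 8.24 and 7.76 in late differentiation. Pcdhgc5 was at 7.97, 7.97 and 7.91, then at 8.10, 8.17 and 7.98, then at 7.89, 8.05 and 7.77. Both differed by -0.05 in late differentiation, with SEs of 0.12 and 0.10, and both were slightly higher in all early than in all proliferation samples without being called. Pcdhb22 was at 7.42, 7.46 and 7.10, then at 7.75, 7.79 and 7.06, then at 7.58, 7.62 and 7.24, and its stages overlapped throughout.

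Pcdha7 was at 6.65, 6.55 and 6.35 in proliferation, at 6.74, 6.77 and 6.30 in early differentiation and at 6.62, 7.07 and 6.20 in late differentiation. Pcdha6 was at 5.55, 5.21 and 5.24, then at 5.68, 5.68 and 5.19, then at 5.52, 6.04 and 5.19. In both the differences between replicates of a stage were larger than those between stages on the probe in use (late 0.11 ± 0.20 and 0.25 ± 0.21). A second Pcdha7 probe, detected on all 9 arrays, went the other way without being called. It gave -0.23 ± 0.14 in late and -0.39 ± 0.14 in early differentiation (adjusted p = 0.208 and 0.0415 over all kept probes). Pcdhb20 was at 5.21, 5.20 and 4.84, then at 5.51, 5.22 and 5.38, then at 5.51, 5.32 and 5.35, with all differentiating above all proliferating samples but no call (late 0.31 ± 0.13, adjusted p = 0.0588). Pcdhb21 was at 4.67, 4.72 and 4.70, then at 5.39, 4.72 and 4.70, then at 4.89, 4.73 and 4.97, its early mean set by replicate 1. Pcdhga4 was at 4.76, 4.86 and 4.77, then at 4.65, 4.57 and 4.47, then at 4.80, 4.89 and 4.84, lowest in early differentiation in all 3 samples but not called there (-0.23 ± 0.09, adjusted p = 0.0533).

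Of the clustered genes detected on fewer arrays, Pcdhb17 had no overlap between late differentiation and proliferation (0.56 ± 0.18, adjusted p = 0.0242) but stayed under 1.5-fold, and Pcdhgc3, without overlap as well, lay lower by less than 1.5-fold (-0.47 ± 0.13, adjusted p = 0.0113). Both were near the fold minimum. Pcdhb17 was called higher without late replicate 1 (0.73) and with background subtraction and scaling to the 75th percentile (1.65), and Pcdhgc3 was called lower without late replicate 1 (-0.61) and with no normalization between arrays (-0.62). Pcdhgc3 is one of the C-type gamma genes, which differ from the rest of their cluster. The remaining genes, Pcdhb6, Pcdhb8, Pcdhb10, Pcdhb12, Pcdhb18, Pcdhga7, Pcdhga8 and Pcdhgc4, lay between -0.02 and 0.48 in late differentiation and were not called. Among them Pcdhb12 was called higher without proliferation replicate 3 (0.63) or late replicate 1 (0.69). Pcdhb8 and Pcdhga8 were called higher in early differentiation with background subtraction and scaling to the 75th percentile. By overlap alone, 7 of the 24 clustered genes were higher in all late than in all proliferation samples and 1 was lower, against 31.7% and 29.9% of all genes tested. Of the 19 non-clustered genes 2 were higher and 10 lower. Between early differentiation and proliferation 9 clustered genes were higher and 2 lower, and 2 non-clustered genes were higher and 8 lower, against 31.3% and 30.0% of all genes. Between late and early differentiation 4 clustered genes were higher and none lower, and 1 non-clustered gene was higher and 6 lower, against 14.7% and 14.0%.

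**Figure D4:**
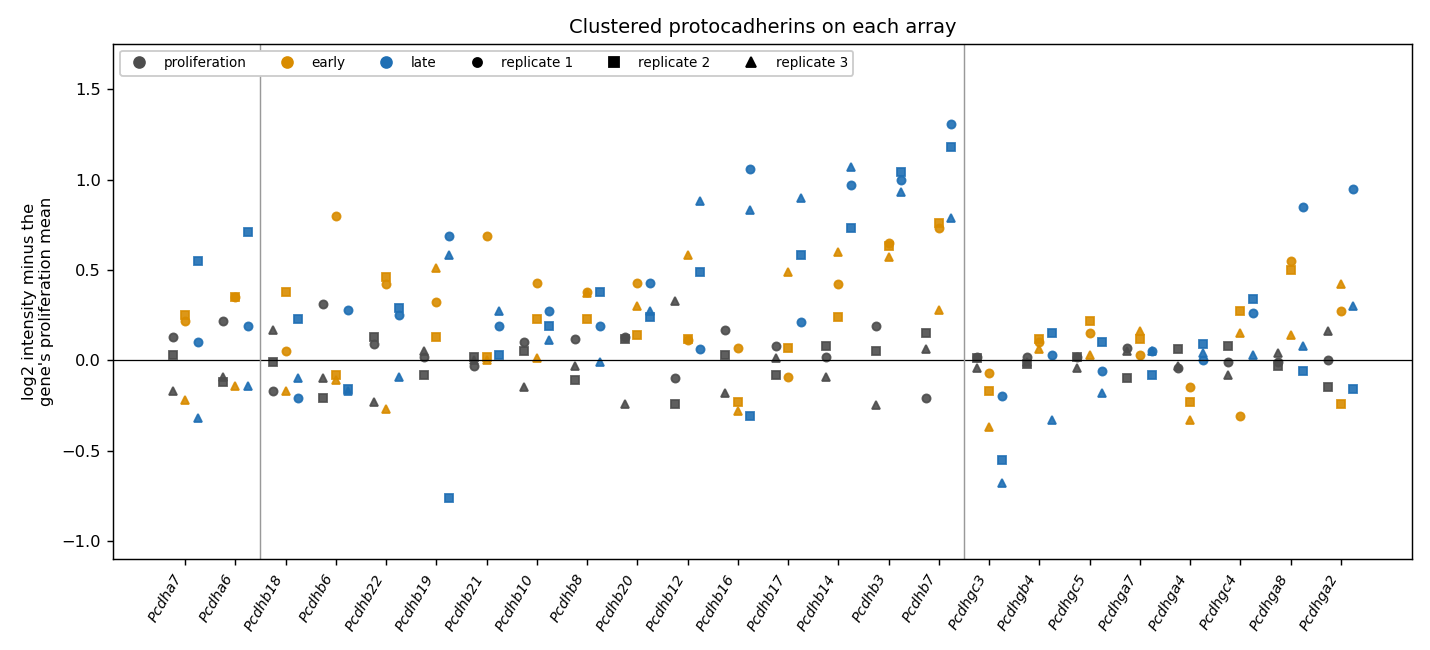
Log2 intensity of the 24 tested clustered protocadherins on each array, minus the gene's own mean in proliferation (y axis), by stage (colour) and replicate (symbol), with the alpha, beta and gamma genes set apart by lines. Pcdhb3, Pcdhb7 and Pcdhb14 rise on all late arrays, and late replicate 2 lies far below the other late arrays for Pcdhb16 and Pcdhb19.

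The median SD between replicates was 0.12 in proliferation, 0.22 in early and 0.24 in late differentiation over the 24 clustered genes, and 0.13, 0.19 and 0.20 over the 19 non-clustered ones. Over all genes it was 0.13, 0.14 and 0.14. In 9 of the 43 genes (20.9%) replicate 3 was the lowest in all 3 stages, among them Pcdh7, Pcdh17, Pcdhb3, Pcdhb22 and Pcdha7, against 7.37% of all genes. Replicate 1 was the highest in all 3 stages in 6 genes (14.0%), against 3.85% of all genes. Replicate 3 was the highest throughout in 3 (6.98%), Cdh13, Pcdh10 and Pcdhb12, against 6.65%.

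Catenins link classical cadherins to actin, and of 12 tested catenins and cytoplasmic partners 6 rose and none fell in late differentiation, against 17.6% and 16.2% of all genes, with a median log2 fold change of 0.62 against 0.01. In early differentiation 7 rose and none fell, against 16.8% and 15.2%. At an unadjusted p-value under 0.05, Afdn and Ctnnbip1 were lower in late and none in early differentiation. The largest late increases were those of Ctnnal1 (2.20 ± 0.13, adjusted p = 2.97e-07), a relative of alpha-catenin, Ctnna2 (2.01 ± 0.15, adjusted p = 1.47e-06), the alpha-catenin of neurons, Pkp2 (1.78 ± 0.23, adjusted p = 7.88e-05), a plakophilin of desmosomes, and Pkp4 (1.30 ± 0.11, adjusted p = 2.70e-06). Beta-catenin (Ctnnb1) was at 0.32 ± 0.10 and p120-catenin (Ctnnd1) at 0.30 ± 0.11, both under 1.5-fold. Delta-catenin (Ctnnd2) rose at day 2 (1.03 ± 0.12) and fell again by day 7 (-0.67 ± 0.12, adjusted p = 0.00983). With the mean of all kept probes that fall was -0.50 and not called. In the same setting the early change of Ctnnal1 was 0.57 instead of 1.89 and not called.

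Among 10 tested genes of the wider cadherin superfamily 3 rose and 2 fell in late differentiation, with a median log2 fold change of 0.07 (over all genes 17.6% rose and 16.2% fell, with a median of 0.01). The planar polarity cadherins Celsr1 (1.62 ± 0.11) and Celsr2 (0.75 ± 0.27, adjusted p = 0.0386) and the calsyntenin Clstn1 (0.62 ± 0.11) rose. The Celsr2 call was weak. Its late level was 7.81, 6.52 and 7.53 against 6.47, 6.31 and 6.82 in proliferation, so that late replicate 2 lay within the proliferation range, and the call was lost when any 1 of 7 arrays was left out, all but proliferation replicate 3 and late replicate 2 (0.49 to 0.75, adjusted p up to 0.148). Clstn1 was under 1.5-fold without proliferation replicate 3 (0.56) or late replicate 3 (0.57). Dchs1, which binds the giant cadherin Fat4, fell (-0.83 ± 0.20), and Cdhr1, a cadherin of photoreceptors, was at least 1.53-fold lower (adjusted p = 0.00153), being undetected in late differentiation. Of 6 nectins and nectin-like adhesion molecules (median 0.18) Cadm3 rose, at least 1.95-fold from an undetected level in proliferation (adjusted p = 6.99e-05), and Pvr (-1.23 ± 0.23) and Nectin3 (-0.87 ± 0.16) fell. The Nectin3 call depended on the probe, and with the mean of all kept probes it was lost (-0.36, adjusted p = 0.0621).

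The counts of the next 3 lists stand against the same shares of all genes, 17.6% higher and 16.2% lower. Of 6 tested repressors of Cdh1 (median -0.37), Zeb1 fell (-1.77 ± 0.10, adjusted p = 1.48e-07) and the other 5 were not called, and Cdh1 itself stayed near the detection limit. Of 10 proteases that cut cadherins (median -0.49), Adam12 fell at least 14.5-fold to an undetected level (adjusted p = 4.01e-09) and Adam17 by -0.83 ± 0.09. Adam15 fell by -0.63 ± 0.11, but it was not called without late replicate 2 (-0.58) or with the mean of all kept probes (-0.21). Psen2, a catalytic subunit of gamma-secretase, rose (1.16 ± 0.13). Adam10, the main sheddase of N-cadherin, was at -0.46 ± 0.09 (adjusted p = 0.00181), under 1.5-fold. Of 12 chromatin factors known to act at the clustered protocadherin genes (median -0.23), Dnmt1, the maintenance DNA methyltransferase, fell (-1.57 ± 0.15, adjusted p = 9.40e-06) and the cohesin subunit Stag1 rose (0.71 ± 0.12, adjusted p = 5.01e-04). Ctcf, which anchors the promoter loops of the clusters, was at -0.05 ± 0.13.

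**Figure D5:**
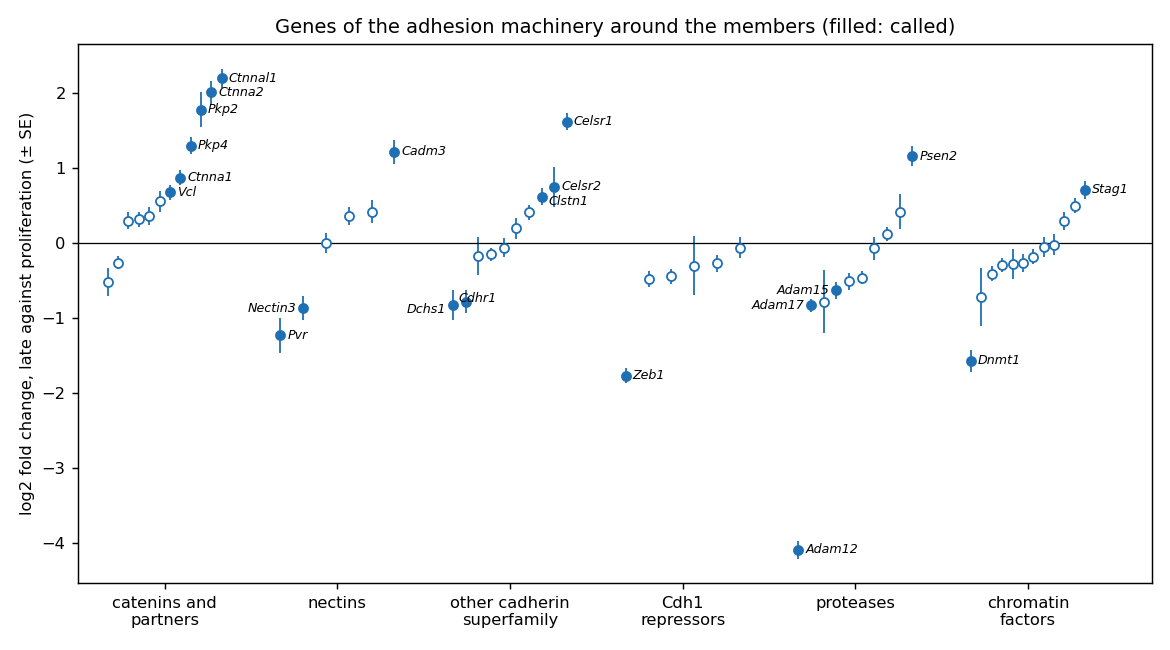
Log2 fold change in late differentiation as compared to proliferation (y axis, ± SE) of the tested genes around the cadherins, in 6 lists (x axis), with called genes filled and named. Every called catenin or partner lies above 0, and Zeb1, Adam12 and Dnmt1 are the lowest of their lists.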

How the data were processed

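Total RNA of 3 proliferation, 3 early and 3 late differentiation samples was hybridized to MouseWG-6 v2.0 BeadChips (Illumina). The authors exported from GenomeStudio, and deposited, the intensity of each of 45281 probes on each array with its detection p-value, the values used here. The study's methods describe an export after background subtraction, but these intensities had no value below 0, a lowest value of 66.3 to 74.5 on each array and medians of 80.0 to 88.8 that differed between arrays, so they were treated as not background-subtracted and not scaled. A second deposited table of background-subtracted, scaled intensity values served as an alternative. The genome build behind the probes is not given in the sources used here.

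Intensities were corrected with the normal-exponential model of limma 3.58.1 (R 4.3.3), with the background inferred from the detection p-values and an offset of 16, then quantile normalized and put on the log2 scale. A probe was retained if its detection p-value was below 0.05 on 3 or more arrays (20935 probes, 17481 of them with a single gene symbol), and the retained probe with the highest mean stood for the gene, which left 11009 genes. A gene undetected on every array of a stage has only a bound there, computed against the lowest detected signal of each array. For called genes it is written as "at least". For genes of this kind that were not called (Cdh24, Pcdh15, Pcdh20, Pcdhga8, Emcn and Kdr) and in the figures the fitted change is given, whose size is not measured. The 9 arrays entered 1 linear model of the stage means (lmFit, eBayes), and p-values were adjusted by Benjamini-Hochberg over all genes. A call needed an adjusted p-value under 0.05 and 1.5-fold. The number of arrays limits the precision. The procedure was tested on simulated data.

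The cadherin genes and the lists were chosen with earlier results of these data known. Values on every array are given for each cadherin or protocadherin called in any comparison or detected on all 9 arrays, and for Cdh1, Cdh2, Cdh4 and Cdh5. Of the other lists, at most 4 called genes per direction were to be named, largest first, and further genes of those lists were chosen after their values were seen. Samples with the same replicate number deviated together in early and proliferation samples (correlations of 0.239, 0.204 and 0.308) and in late and early samples (0.318, 0.172 and 0.386), so the numbers were taken to pair these samples, and a fit with the replicate block was run beside the main one. Promoter sequences came from RefSeq (GRCm38.p6), which served for no coordinates other than these and the gene spans set beside them. Alternatives to the background correction, normalization, filter, probe choice, samples and call rule were also run.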

Additional observations from a re-analysis of the deposited data

How the results depend on the processing

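Directions held in every alternative for each change that was called, but counts moved where changes lay near 1.5-fold. In late differentiation as compared to proliferation, an offset of 50, which compresses dim probes, left 2 genes higher and 7 lower (9 calls, all among the 15 of the analysis reported). The calls of Cdh10, Cdh6, Pcdh1, Pcdh19, Pcdhb3 and Pcdhb7 were lost. The count of higher genes ranged from 4 to 7 when 1 array was left out, 7 being without late replicate 2, and that of lower genes from 9 to 11. In early differentiation the 3 higher genes became 1 with no normalization between arrays, with the offset of 50 and with the deposited value table, 6 with background subtraction and scaling to the 75th percentile, and 5 with no fold minimum. Without normalization the median of all genes shifted to -0.31 in late and -0.41 in early differentiation and increases made up 21.5% and 15.7% of all calls, against 52.1% and 52.6%, so that changes there are relative to that shift. Pcdhb14 was at 0.50 and not called in late differentiation in that setting, and Pcdhb3 and Pcdhb7 at 0.41 and 0.36 in early differentiation.

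Between late and early differentiation no gene rose, and 2 rose with no fold minimum. The 2 lower genes became 1 with cyclic loess normalization, no normalization, the offset of 50 or only the 6 arrays of the 2 stages, and 0 with background subtraction and scaling, the deposited value table or no filter on dim probes. With 1 array left out, the count of higher genes ranged from 0 to 2 and that of lower genes from 0 to 3. In these settings the Cdh13 estimate stayed between -1.76 and -1.09. The replicate block gave 4 higher and 11 lower genes in late as compared to proliferation, 3 and 7 in early as compared to proliferation, and 0 and 3 in late as compared to early, the added gene being Pcdh17. The same numbers also link late and proliferation samples through the early ones, and the block spans all 3 stages. The direct same-number correlations of late and proliferation samples were low (0.0642, 0.0794 and 0.142). The pairing of these samples is thus uncertain, and the block changed no call between them. The causes of these shifts were not tested.

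Detection sets the limit of what can be said: 45 of the 88 genes had no probe detected on 3 arrays, dim probes understate changes, and 3 arrays per stage leave small differences unresolved.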
